A study of Mus musculus with 34 samples.

Results

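Expression of 9 genes that make, remove, carry or sense retinoic acid was followed in WT mouse limb buds and in limb buds with a conditional deletion of *Hnrnpk*. They were chosen by symbol for these roles and not by a cut on their values, though earlier results of these data were known. All 9 were found among the 22040 genes of the mRNA-seq table, and all 9 passed the filter on low values, so none is left out below. They are *Rdh10* and *Aldh1a2* for synthesis, *Cyp26a1* and *Cyp26b1* for breakdown, *Crabp1* and *Crabp2* for binding inside the cell, and the receptors *Rara*, *Rarb* and *Rarg*.

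Limb buds were taken from embryos at embryonic day 11.5. The 3 WT libraries come from embryos labelled as wild type for *Hnrnpk*. The 3 CKO libraries come from embryos with floxed *Hnrnpk* alleles and the *Prrx1-Cre* transgene, whose promoter is active in limb bud mesenchyme, so blood, vessels, muscle precursors and the covering ectoderm of the bud are not its main targets, and which is known to act less completely in hindlimbs than in forelimbs. The sources used here do not give the number of embryos in a library, how forelimbs and hindlimbs were combined, or whether WT embryos carried Cre or a floxed allele, and no drug or other agent is named. The mesenchymal transcription factor *Prrx1* was measured at an FPKM of 51.6 to 62.0 across the 6 libraries. Markers of ectoderm, vessels, muscle, nerve, macrophages and red cells were read as well, so the libraries hold several cell types.

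Retinoic acid is made from retinol in a pair of oxidations. RDH10 forms retinaldehyde and ALDH1A2 turns it into retinoic acid, while enzymes of the CYP26 family oxidise retinoic acid for removal. In the embryo the source lies in the trunk next to the limb, and *Cyp26b1* in the distal bud keeps the tip low in retinoic acid. Inside the cell CRABP1 and CRABP2 bind it, and the receptors RARA, RARB and RARG sit with RXR partners on pairs of short repeats in DNA, the retinoic acid response elements. *Rarb* and *Cyp26a1* are textbook targets that carry such elements close to their start.

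These elements are shown because *Rarb* and *Cyp26a1* are read as outputs of the pathway as well as parts of it. The RefSeq promoter table of GRCm38.p6 held 11 windows for 7 of the 9 genes, from 250 bases before to 50 bases after a transcript start, and *Rdh10* and *Crabp2* were not matched. Direct repeats were searched on both strands with 1, 2 or 5 bases between the copies, where a copy had the letters AGGTCA, the variant AGTTCA, the variant GGTTCA or the variant GGGTCA, in any combination. A repeat was found in a window of *Rarb* and in one of *Cyp26a1*, both with a spacer of 5, and in no window of the other 5 matched genes. Of all 32851 windows in the table, 193 (0.588%) held any of these repeats and 32 (0.0974%) held one with a spacer of 5. The 120 bases before each start are printed from 5′ to 3′ on the strand of the gene, with the repeat in capitals. In *Rarb*, on the minus strand at chr14:16575477-16575596, it lies 53 to 37 bases before the start and reads in the direction of the gene. In *Cyp26a1*, on the plus strand at chr19:37697688-37697807, it lies 32 to 16 bases before the start and reads on the opposite strand.
Rarb: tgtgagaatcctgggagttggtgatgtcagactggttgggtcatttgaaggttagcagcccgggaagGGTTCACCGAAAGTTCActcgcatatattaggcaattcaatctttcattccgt
Cyp26a1: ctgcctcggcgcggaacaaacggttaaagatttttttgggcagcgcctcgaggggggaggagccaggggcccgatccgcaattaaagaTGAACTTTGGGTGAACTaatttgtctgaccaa
*Rarb* and *Cyp26a1* were already known to carry such elements, so their matches are shown and are no new finding. A match is a string in the reference and not a measured binding site, and a window without a match does not mark a gene as unresponsive.

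Values are the FPKM that the authors deposited, fragment numbers corrected for gene length and library size. CKO was compared with WT by limma on log2(FPKM + 0.1) for 12305 genes, with *p* values adjusted over all of them by the Benjamini-Hochberg method. A log2 fold change is CKO minus WT on that scale, which understates the change of low genes. Reads recovered from the FPKM numbered 17140866 to 24624426 per library. *Hnrnpk* itself had an FPKM of 193, 195 and 185 in WT replicates 1 to 3 and 127, 142 and 135 in CKO replicates 1 to 3, without overlap but with the CKO mean still 0.706 times that of WT (log2 fold change -0.50, standard error 0.13, adjusted *p* = 0.334). The floxed allele loses only some exons, whereas the FPKM covers all of them, so this ratio does not measure how complete the deletion was. By western blot and qPCR of limb buds the authors reported efficient loss of Hnrnpk. Replicate 1 of both groups stood apart from replicates 2 and 3, and the number shared between WT and CKO libraries was taken to pair them, although the libraries' correlations do not tell numbers 2 and 3 from each other. A model with this number as a block, which compares the groups within each number, is given where it changed a call. A fit on replicates 2 and 3 alone compared WT replicates 2 and 3 with CKO replicates 2 and 3 without the block. It left out the replicate that these same data set apart, so its *p* values are descriptive. The globin share of the summed FPKM ran from 11.7% to 20.6% in 4 libraries and was 23.5% and 32.4% in CKO replicates 3 and 2.

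The 9 genes spanned a wide range of levels, with the binding proteins at the top and *Cyp26a1* at the bottom. Over the 6 libraries the mean FPKM was 212 ± 28.4 (SD) for *Crabp2*, 120 ± 34.8 for *Crabp1*, 41.8 ± 10.3 for *Cyp26b1* and 38.8 ± 3.69 for *Rarg*. It was 10.9 ± 0.831 for *Rara*, 7.52 ± 3.51 for *Aldh1a2*, 3.37 ± 0.644 for *Rdh10*, 2.0 ± 1.02 for *Rarb* and 0.770 ± 0.148 for *Cyp26a1*. FPKM is scaled to gene length, so these levels can be set beside each other. Between neighbours in this order, ranges overlapped for *Crabp2* and *Crabp1*, for *Cyp26b1* and *Rarg*, for *Rara* and *Aldh1a2*, for *Aldh1a2* and *Rdh10*, and for *Rdh10* and *Rarb*. *Cyp26b1* exceeded *Rarg* in 4 of 6 libraries, so these levels were not separated, whereas *Crabp2* exceeded *Crabp1* in 6 of 6. The enzymes of synthesis thus stood below *Cyp26b1*, *Rarg* and both binding proteins in every library.

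**Figure D1:**
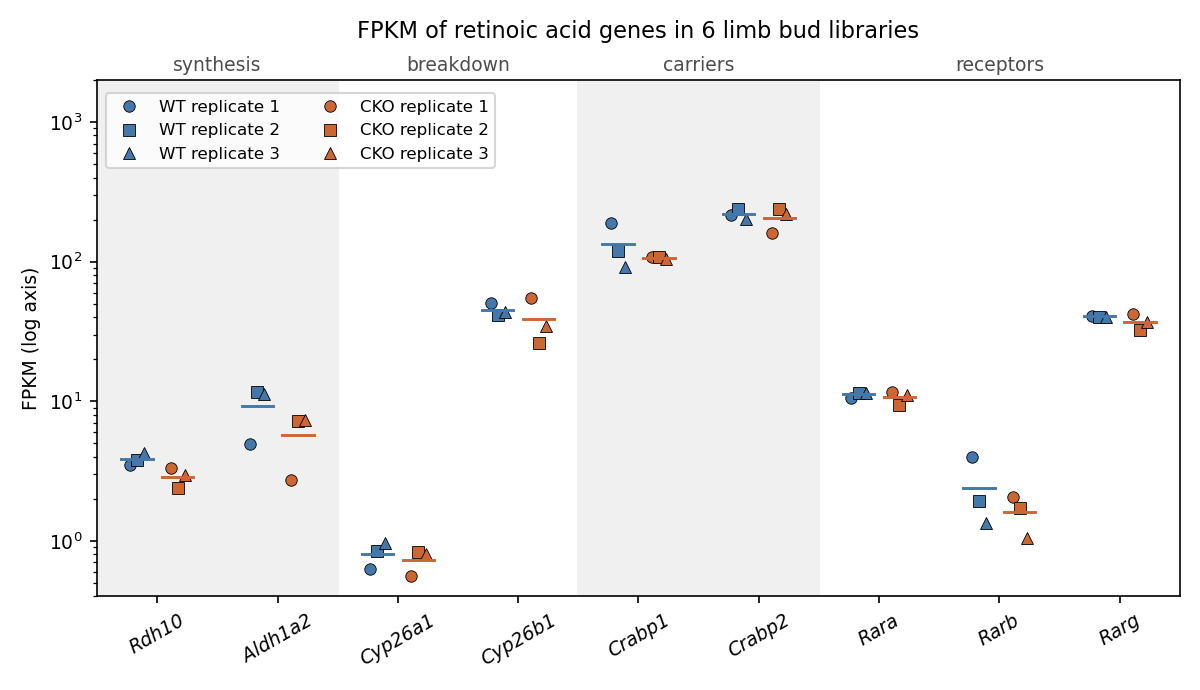
FPKM of the 9 retinoic acid genes in each of the 6 limb bud libraries on a log axis, with a point per library the replicate number by its shape, and a line at each group mean. *Crabp2* and *Crabp1* lie highest, *Cyp26a1* lies below an FPKM of 1 in all libraries, and *Aldh1a2* is lowest in replicate 1 of both groups.

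None of the 9 genes passed an adjusted *p* value of 0.05 in limma without the block, a threshold that 0.065% of all tested genes passed. At an unadjusted *p* value under 0.05 there was 1 gene, *Rdh10*, beside 8.31% of all tested genes. On the reads recovered from the FPKM, limma voom also gave 0 of 9 at the adjusted threshold and 1 of 9 unadjusted. All 9 log2 fold changes were below 0, as were 49.1% of those of all tested genes, with a median of -0.26 against 0.0048 over all tested genes. Those of *Cyp26a1*, *Crabp1*, *Crabp2* and *Rara* turned above 0 when a replicate was left out, and those of *Crabp1* and *Crabp2* also within replicates 2 and 3. With the replicate block, 1 of 9 genes was lower at the adjusted threshold, *Aldh1a2*, where 1.68% of all tested genes were. In the unpaired fit on replicates 2 and 3 alone, 3 of 9 were lower, *Aldh1a2*, *Rdh10* and *Cyp26b1*, where 8% of all tested genes were. That fit leaves out the replicate that these same data set apart, so this count is a description. In 4 genes, *Aldh1a2*, *Rdh10*, *Cyp26a1* and *Rarb*, the CKO library lay below the WT library of the same number for all 3 numbers, as for 21.3% of all tested genes.

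**Figure D2:**
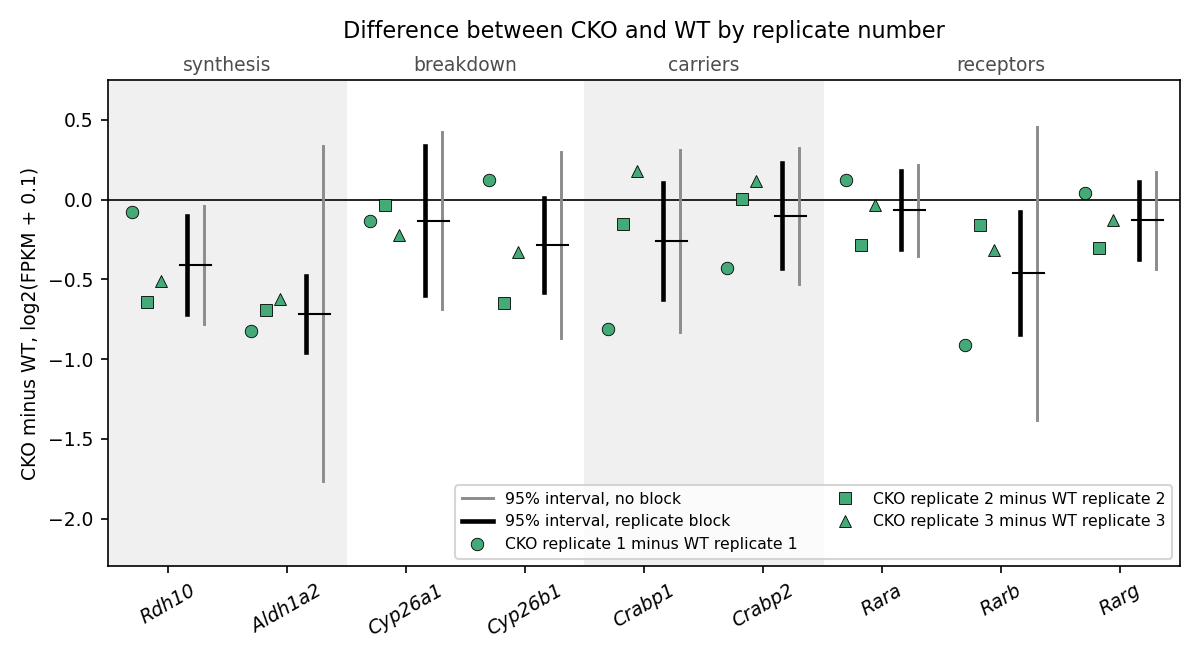
Log2 fold change of each retinoic acid gene, CKO minus WT on log2(FPKM + 0.1), as a short line with 95% confidence intervals from limma without (grey) and with (black) the replicate block, and a point for the difference within each replicate number. *Aldh1a2* keeps its value of -0.72 while its interval narrows from -1.77 to 0.33 down to -0.96 to -0.48 with the block.

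*Aldh1a2* (ENSMUSG00000013584, chromosome 9 of GRCm38 from 71215789 to 71296243, plus strand) encodes the main enzyme that forms retinoic acid in the early embryo. Its FPKM was 4.93, 11.7 and 11.3 in WT replicates 1 to 3 and 2.73, 7.17 and 7.30 in CKO replicates 1 to 3. Both replicate 1 libraries were low, the groups overlapped through WT replicate 1, and CKO lay below WT within every number. The mean was 9.31 ± 3.80 (SD, n = 3) over the WT libraries and 5.74 ± 2.60 (SD, n = 3) over the CKO libraries, a log2 fold change of -0.72 with a standard error of 0.45 (adjusted *p* = 0.739 in limma, exact permutation *p* = 0.3). Within the numbers the differences were -0.83, -0.70 and -0.63 on the log2 scale. The block left the fold change at -0.72 and gave a standard error of 0.11 and a limma adjusted *p* of 0.00497, with CKO at 0.516 to 0.719 times WT in the 95% interval. Fitted on replicates 2 and 3 alone, without the block, the fold change was -0.66 (limma adjusted *p* = 3.9e-04). Without CKO replicate 1 it was -0.26 and without WT replicate 1 it was -1.12, so unpaired values depended on which replicate 1 library was kept. The values rested on 112 to 633 reads. In whole limb buds, fewer cells of a type and less RNA per cell cannot be told apart.

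*Aldh1a2* is known from trunk and flank mesoderm, so markers of neighbouring tissue are given beside it. Of 5 somite and flank markers (*Tcf15*, *Meox1*, *Pax1*, *Wt1*, *Tbx18*), 4 were tested, all 4 with log2 fold changes below 0, none past the adjusted threshold without the block and 1, *Pax1*, with it. Their summed FPKM ran from 41.7 to 54.5 over WT and from 39.4 to 42.1 over CKO libraries, and none was at 0 in all libraries. Most of this sum was *Tbx18*, at 27.1 to 39.3 in WT and 27.3 to 29.0 in CKO, so the sum mainly followed this gene. *Tbx18* is also counted among the limb T-box genes, so the sum does not mark tissue next to the limb alone. The log2 fold changes were -0.06 for *Tcf15*, -0.15 for *Meox1*, -0.81 for *Pax1* and -0.26 for *Tbx18*. For 6 proximal limb markers the sum was 130 to 148 in WT and 117 to 143 in CKO, with 5 of 6 genes below 0 on the log2 scale, none at 0 in all libraries, and 1, *Irx3*, past the threshold with the block. Most of this sum was *Shox2*, the gene above 0 at 0.03, with 77.1 to 92.8 in WT and 80.5 to 91.7 in CKO. Unlike *Aldh1a2*, the proximal sum was highest in replicate 1 in both groups, whereas *Shox2* was lowest in WT replicate 1. The sums of both lists moved with *Aldh1a2* between the groups in replicates 2 and 3, and their part in the result was not tested.

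The genes of limb type are set beside these results as well. *Tbx5*, the transcription factor gene of the forelimb, had an FPKM of 20.3, 19.1 and 19.2 in WT replicates 1 to 3 and 15.3, 7.30 and 9.58 in CKO replicates 1 to 3. All CKO libraries lay below all WT libraries, with the lowest values in CKO replicates 2 and 3, and the log2 fold change of -0.93 had an adjusted *p* of 0.358 in limma and 0.00734 with the block. The hindlimb genes *Tbx4* and *Pitx1* had -0.0033 and 0.25 (limma adjusted *p* = 0.997 and 0.663). For *Pitx1* the CKO values all lay above the WT values, and for *Tbx4* they overlapped. These belong to 7 limb mesenchyme markers, 2 above and 5 below 0 on the log2 scale and none at 0 in all libraries, whose summed FPKM was 319 to 342 in WT libraries and 287 to 319 in CKO libraries. The part of the forelimb and hindlimb content in the values of *Aldh1a2*, *Rdh10* and *Cyp26b1* was not tested.

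*Rdh10* (ENSMUSG00000025921, chromosome 1 from 16105774 to 16133734, plus strand) encodes the retinol dehydrogenase of the first step. Its FPKM was 3.51, 3.80 and 4.23 in WT replicates 1 to 3 and 3.32, 2.40 and 2.94 in CKO replicates 1 to 3. The groups did not overlap, as for 8.86% of all tested genes with CKO lower, and the gap was small in replicate 1. From a WT mean of 3.85 ± 0.365 (SD, n = 3) to a CKO mean of 2.89 ± 0.464 (SD, n = 3), limma gave a log2 fold change of -0.41 with a standard error of 0.16 (adjusted *p* = 0.558, unadjusted *p* = 0.0347). The exact two-sided permutation test gave 0.1, the smallest *p* that 3 libraries against 3 allow. By number the differences were -0.08, -0.64 and -0.51. Fitted on replicates 2 and 3 alone, without the block, the value was -0.58 (limma adjusted *p* = 0.00770). The block over all 3 numbers gave an adjusted *p* of 0.15. The values rested on 191 to 384 reads.

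For breakdown, nearly all of the measured CYP26 transcript was *Cyp26b1* (ENSMUSG00000063415, chromosome 6 from 84571414 to 84593908, minus strand), the enzyme of the distal limb. It made up 97.0% to 99.0% of the summed FPKM of *Cyp26a1* and *Cyp26b1*. Its FPKM was 50.3, 41.1 and 43.7 in WT replicates 1 to 3 and 54.6, 26.2 and 34.8 in CKO replicates 1 to 3. CKO replicate 1 was the highest of all 6 libraries while CKO replicates 2 and 3 were the lowest, so CKO held both ends of the range. Limma gave a log2 fold change of -0.28 with a standard error of 0.25 (adjusted *p* = 0.837), and the differences were 0.12, -0.65 and -0.33 by number. Fitted on replicates 2 and 3 alone, without the block, it was -0.49 (limma adjusted *p* = 0.0135), whereas the block over all numbers gave 0.285. Leaving out CKO replicate 2 moved it to -0.04, and leaving out CKO replicate 1 moved it to -0.57, so it depended on single CKO libraries.

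Markers of the distal limb and of cartilage are set beside *Cyp26b1*. The summed FPKM of 6 distal limb markers (*Hoxa13*, *Hoxd13*, *Hoxd12*, *Lhx9*, *Msx1*, *Wnt5a*), none at 0 in all libraries, was 182 to 273 in WT and 234 to 263 in CKO, with 3 of 6 higher and 3 lower and none past the adjusted threshold with or without the block. *Hoxd13* was the largest part of this sum, at 54.7 to 123 in WT and 92.1 to 120 in CKO. Within numbers 1 to 3 the sum differed by 0.41, -0.12 and -0.05 on the log2 scale, with the same signs as *Cyp26b1*. *Hoxd13*, *Hoxd12* and *Wnt5a* had these signs, and *Hoxa13*, *Lhx9* and *Msx1* did not. Of 6 cartilage markers (*Sox9*, *Col2a1*, *Acan*, *Matn1*, *Sox5*, *Sox6*), none at 0 in all libraries, 4 were tested, all 4 below 0 with a median log2 fold change of -0.36 and none past the adjusted threshold with or without the block. Their summed FPKM ran from 78.1 to 116 over WT and from 69.3 to 88.1 over CKO libraries. Within numbers 1 to 3 this sum differed by 0.17, -0.74 and -0.54, with CKO farthest below WT in numbers 2 and 3 as in *Rdh10*. In number 1 only *Col2a1* (0.33), the most abundant of the list, and *Matn1* (0.52, on 1 and 3 reads) were above 0. *Sox9* (-0.07), *Sox5* (-0.15), *Sox6* (-0.06) and *Acan* (-0.07) were below 0 there, unlike *Cyp26b1*. The part of either list in the *Cyp26b1* and *Rdh10* values was not tested.

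*Cyp26a1* (ENSMUSG00000024987, chromosome 19 from 37697798 to 37701536, plus strand), whose promoter repeat is printed above, was near the filter on low values. Its FPKM was 0.626, 0.848 and 0.957 in WT replicates 1 to 3 and 0.561, 0.825 and 0.804 in CKO replicates 1 to 3. The groups overlapped, and the values rested on 18 to 37 reads. The difference between the groups, -0.13 on the log2 scale with a standard error of 0.24 (adjusted *p* = 0.921 in limma), was not detectable at this depth, and the 95% interval put CKO at 0.621 to 1.34 times WT.

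The balance of breakdown and synthesis varied more between replicate numbers than between groups. The ratio of *Cyp26b1* to *Aldh1a2* FPKM was 10.2, 3.52 and 3.86 in WT replicates 1 to 3 and 19.99, 3.66 and 4.77 in CKO replicates 1 to 3. Replicate 1 was highest in both groups, and CKO lay above WT within each number. The means of 5.86 ± 3.77 (SD, n = 3) and 9.47 ± 9.12 (SD, n = 3) differed by less than the spread between replicates. Unpaired, the CKO mean minus the WT mean was 3.61, and without CKO replicate 1 it was -1.65. WT replicate 1, also high, stayed in that comparison, so only the sign of the unpaired means rested on 1 library.

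The binding proteins were the most abundant members. *Crabp1* (ENSMUSG00000032291, chromosome 9 from 54764748 to 54773110, plus strand) and *Crabp2* (ENSMUSG00000004885, chromosome 3 from 87948666 to 87953376, plus strand) encode small proteins of the cytoplasm, of which CRABP2 is known to deliver retinoic acid to receptors. *Crabp1* FPKM was 188, 119 and 92.2 in WT replicates 1 to 3 and 107, 107 and 104 in CKO replicates 1 to 3. WT spread widely, with replicate 1 far above the others, while the CKO libraries lay close together inside the WT range. Its log2 fold change of -0.26 had a standard error of 0.25 (adjusted *p* = 0.846 in limma), and without WT replicate 1 it was 0.02.

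*Crabp2* FPKM was 217, 237 and 200.4 in WT replicates 1 to 3 and 161, 237 and 217 in CKO replicates 1 to 3. The groups overlapped, and CKO replicate 1 alone lay below the WT range. Limma gave -0.10 on the log2 scale with a standard error of 0.18 (adjusted *p* = 0.920), and without CKO replicate 1 it was 0.06. The 95% interval put CKO at 0.693 to 1.25 times WT. *Crabp2* exceeded *Crabp1* 1.15 to 2.18 times in WT and 1.5 to 2.22 times in CKO libraries, ranges that overlap.

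Of the receptors, *Rarg* supplied most of the transcript in every library. *Rarg* (ENSMUSG00000001288, chromosome 15 from 102234938 to 102257517, minus strand) had an FPKM of 41.1, 39.9 and 40.4 in WT replicates 1 to 3 and 42.3, 32.2 and 36.9 in CKO replicates 1 to 3. WT libraries lay within a narrow range and CKO libraries on both sides of it. Its log2 fold change of -0.13 had a standard error of 0.13 (adjusted *p* = 0.855 in limma), with CKO at 0.740 to 1.13 times WT in the 95% interval. Without CKO replicate 2 it was -0.03 and without CKO replicate 1 it was -0.23. *Rarg* made up 73.8% to 76.0% of the summed receptor FPKM over all 6 libraries.

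*Rara* (ENSMUSG00000037992, chromosome 11 from 98927818 to 98974942, plus strand), the broadly expressed receptor, had an FPKM of 10.6, 11.5 and 11.4 in WT replicates 1 to 3 and 11.6, 9.39 and 11.1 in CKO replicates 1 to 3. The groups overlapped, and CKO replicate 2 was the lowest library. Between the groups the log2 fold change was -0.07, its standard error 0.12 (adjusted *p* = 0.922 in limma), with CKO at 0.784 to 1.16 times WT in the 95% interval, the narrowest of the 9 genes. Its share of the receptor transcript was 19.1% to 22.7%.

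*Rarb* (ENSMUSG00000017491, chromosome 14 from 16430839 to 16819156, minus strand), which retinoic acid is known to induce through the element printed above, had an FPKM of 3.95, 1.92 and 1.33 in WT replicates 1 to 3 and 2.06, 1.71 and 1.05 in CKO replicates 1 to 3. It was highest in replicate 1 of each group, the groups overlapped, and CKO lay below WT within every number. Limma gave a log2 fold change of -0.46 with a standard error of 0.40 (adjusted *p* = 0.837). The block gave an adjusted *p* of 0.186 at an unadjusted *p* of 0.0215. The unpaired value rested on single libraries, moving to -0.045 when WT replicate 1 was left out, to -0.20 for CKO replicate 3 and to -0.79 for WT replicate 3. The share of *Rarb* in the receptor transcript was 2.14% to 7.10%. Its exons share 2020 bases with *Top2b* and *Gm48162* on the opposite strand, and the strand setting of the counting is not given in the sources used here, so reads of these genes may be mixed. *Top2b* had an FPKM of 29.5 to 33.5 and a log2 fold change of -0.06 (limma adjusted *p* = 0.914).

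**Figure D3:**
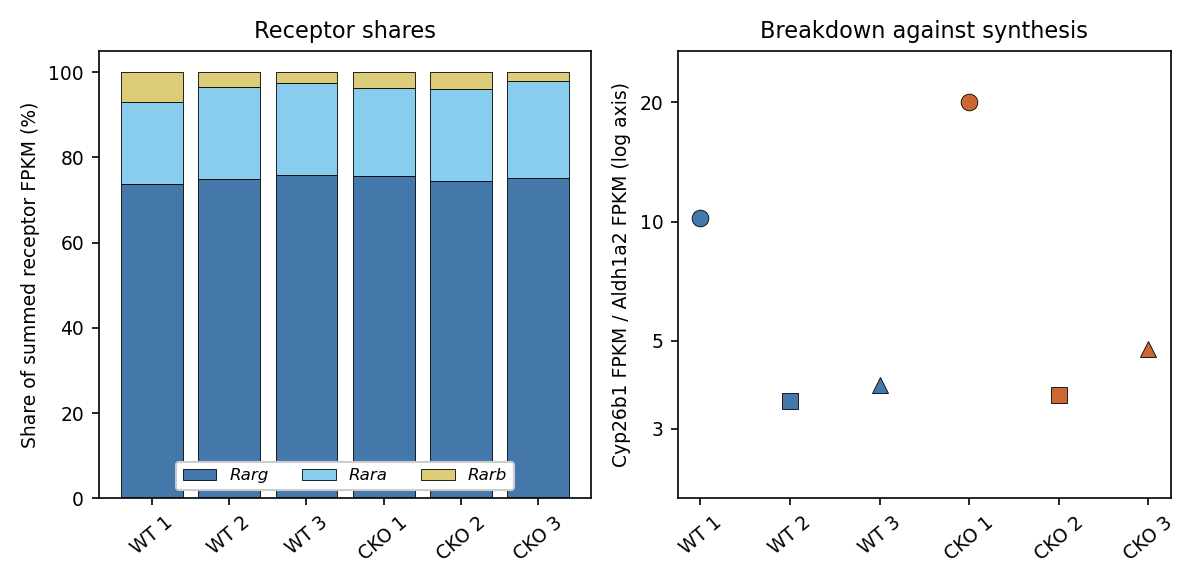
Left, the share of *Rarg*, *Rara* and *Rarb* in their summed FPKM for each library, in percent. Right, the ratio of *Cyp26b1* to *Aldh1a2* FPKM for each library on a log axis. *Rarg* holds 73.8% to 76.0% in all libraries, and the ratio is highest in replicate 1 of both groups, at 10.2 in WT and 19.99 in CKO.

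In *Aldh1a2*, *Rarb* and *Cyp26a1*, replicate 1 differed from replicates 2 and 3 in the same direction in both groups. In each of these genes it did so by more than CKO differed from WT. The difference of replicate 1 from the mean of replicates 2 and 3 on the log2 scale was -1.21 in WT and -1.37 in CKO for *Aldh1a2*. Over all tested genes the median size of this difference was 0.235 in WT and 0.311 in CKO, and it exceeded 1 in 3.49% and 4.43% of genes. *Rarb* went the other way, with 1.25 in WT and 0.58 in CKO, and so did *Cyp26b1* with 0.25 and 0.85. For *Crabp1* it was 0.85 in WT and 0.02 in CKO, and for *Crabp2* it was -0.01 in WT and -0.50 in CKO. *Cyp26a1* had -0.46 and -0.47, while the values of *Rdh10*, *Rara* and *Rarg* lay between -0.19 and 0.31.

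Markers of limb position and of other cells moved with the replicate number as well. *Meis1* and *Meis2*, transcription factor genes of the proximal limb that respond to retinoic acid, were higher in replicate 1 by 0.70 and 0.80 in WT and by 0.61 and 0.71 in CKO. The distal genes *Hoxa13* and *Hoxd13* were lower in WT replicate 1, at -0.59 and -1.12, with 0.08 and -0.30 in CKO. In both groups replicate 1 had the lowest sum of the ectoderm, muscle, neural, red cell and macrophage markers, 5 of the 11 marker lists. The genes within these lists did not all follow the sums. For example, *Pax3* of the muscle, *Fgf8* of the ectoderm and *Cx3cr1* of the macrophage list were highest in replicate 1 of both groups. The macrophage sum was 8.26 in WT replicate 1 and 8.43 in WT replicate 2. The muscle sum of 5 genes, none at 0 in all libraries, was 8.96 to 24.1 across WT and 19.7 to 27.7 across CKO libraries. The ectoderm sum of 8 genes, none at 0 in all libraries, was 46.9 to 78.0 in WT and 51.7 to 80.2 in CKO. The part of tissue position or cell content in the replicate differences was not tested.

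**Figure D4:**
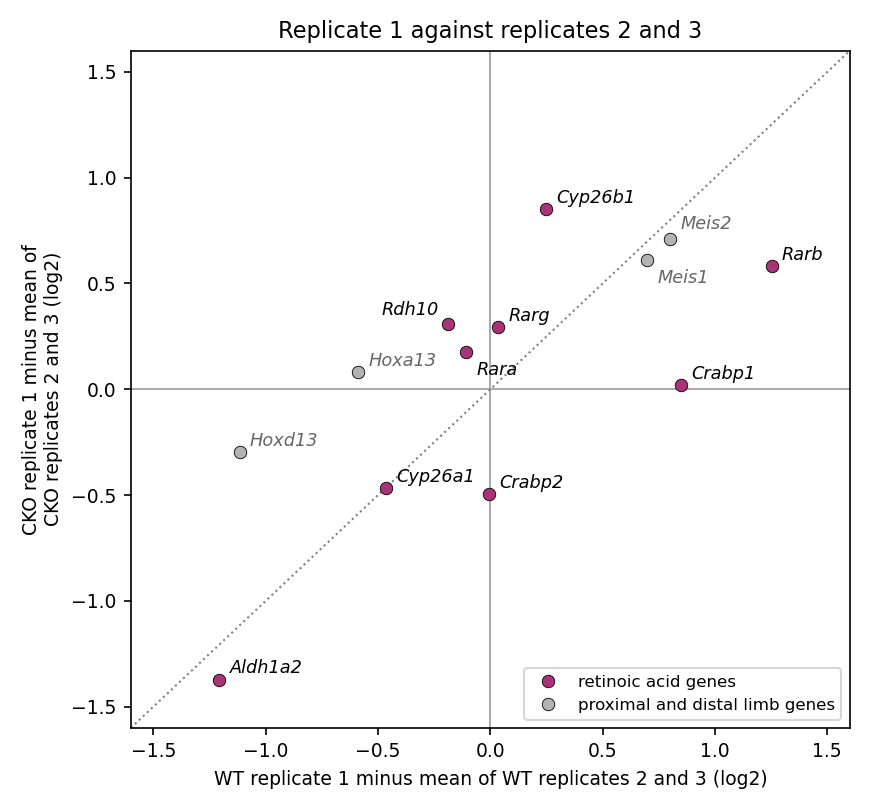
Difference of replicate 1 from the mean of replicates 2 and 3 on the log2 scale, WT on the horizontal and CKO on the vertical axis, for the 9 retinoic acid genes and 4 limb position genes. Points near the dotted diagonal differ alike in both groups, with *Aldh1a2* at -1.21 and -1.37 and *Rarb* at 1.25 and 0.58.

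Around these 9 genes, a list of 42 other genes of retinoid uptake, metabolism and response was read, of which 29 passed the filter. None passed the adjusted threshold in limma without the block and 0 had an unadjusted *p* value under 0.05, beside 0.065% and 8.31% of all tested genes. Of the 29, 12 had log2 fold changes above 0 and 17 below 0, with a median of -0.13. With the block, 1 was higher, *Zfp703*, and 2 were lower, *Nr2f1* and *Rdh14*, where 1.13% of all tested genes were higher, 1.68% lower and 2.81% either. Limma voom with the block gave 1 higher and 1 lower.

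In uptake and storage 3 of 6 genes were tested. The FPKM of *Stra6*, the membrane receptor for retinol-binding protein, was 8.77, 8.81 and 8.92 in WT replicates 1 to 3 and 8.96, 6.48 and 7.22 in CKO replicates 1 to 3, so that CKO replicates 2 and 3 lay below WT and CKO replicate 1 above (log2 fold change -0.24, limma adjusted *p* = 0.723).

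Among 11 enzymes that interconvert retinol and retinaldehyde, 7 were tested, 4 above and 3 below 0. *Rdh14* FPKM was 4.20, 6.77 and 7.19 in WT replicates 1 to 3 and 2.5, 5.75 and 4.62 in CKO replicates 1 to 3. It was lowest in replicate 1 of both groups, as *Aldh1a2* was, and its log2 fold change of -0.53 had an adjusted *p* of 0.726 in limma and 0.0490 with the block. The most abundant enzymes, *Adh5* and *Dhrs4*, had log2 fold changes of 0.17 and -0.20 (limma adjusted *p* = 0.886 and 0.831). The other retinaldehyde dehydrogenases, *Aldh1a1* and *Aldh1a3*, fell under the filter, with an FPKM of 0.134 to 0.879 and 0.0359 to 0.258, and so did *Cyp26c1* with 0.0240 to 0.215. *Aldh1a2* was thus the highest of the 3 retinaldehyde dehydrogenases in every library.

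*Fabp5*, an alternative carrier of retinoic acid, had a log2 fold change of 0.14 (limma adjusted *p* = 0.896). All 3 RXR partners were tested, and *Rxrb* and *Rxra*, the most abundant, had 0.03 and -0.15 (limma adjusted *p* = 0.969 and 0.848). All 7 coregulators were tested, 3 above and 4 below 0, and *Rere* and *Ncor1* had -0.13 and -0.01 (limma adjusted *p* = 0.936 and 0.99).

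Of 11 genes known to respond to retinoic acid, 8 were tested, 3 above and 5 below 0. *Nr2f1*, which encodes the orphan receptor COUP-TFI, had an FPKM of 9.79, 6.11 and 5.02 in WT replicates 1 to 3 and 6.03, 3.18 and 3.53 in CKO replicates 1 to 3. CKO lay below WT within every number while the groups overlapped through CKO replicate 1, and the log2 fold change of -0.70 had an adjusted *p* of 0.601 in limma and 0.0105 with the block. *Zfp703*, a zinc finger gene, went the other way, with 22.5, 14.0 and 14.1 in WT replicates 1 to 3 and 31.0, 18.2 and 23.1 in CKO replicates 1 to 3. CKO lay above WT within every number, and its log2 fold change of 0.52 had an adjusted *p* of 0.645 in limma and 0.0265 with the block. *Nr2f2*, which encodes COUP-TFII, had -0.32 (limma adjusted *p* = 0.654). The exons of *Nr2f1*, *Nr2f2* and *Zfp703* share 123, 643 and 459 bases with genes on the opposite strand.

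**Figure D5:**
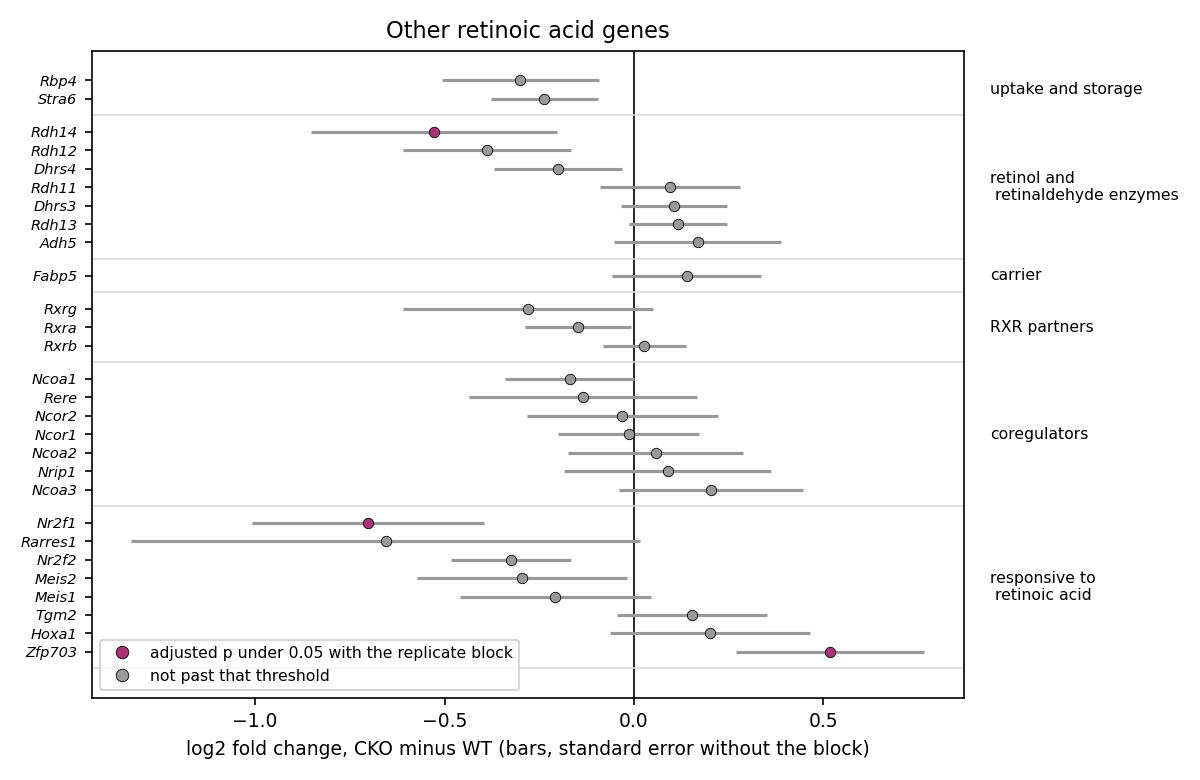
Log2 fold change, CKO minus WT on log2(FPKM + 0.1), of the tested genes of the wider retinoid list by role, 1 of the 29 left out, with bars of 1 standard error from limma without the block and coloured points for the 3 genes past an adjusted *p* of 0.05 with the block. Values run from -0.70 for *Nr2f1* to 0.52 for *Zfp703*.

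Genes with the profile closest to *Rdh10* and *Aldh1a2* over the 6 libraries were found by the distance between log2 values centred on each gene's mean. For *Rdh10*, whose own profile lies 0.63 from its mean, they were *Raver2* at a distance of 0.07, *Tyro3* at 0.10 and *Cdk10* at 0.11. *Raver2* had an FPKM of 3.77, 4.16 and 4.79 in WT replicates 1 to 3 and 3.55, 2.57 and 3.21 in CKO replicates 1 to 3, with CKO replicate 2 lowest as in *Rdh10*. For *Aldh1a2*, whose profile lies 1.73 from its mean, they were *Angptl6* at 0.38, *Nrtn* at 0.45 and *Lrrc17* at 0.45. *Lrrc17* had an FPKM of 3.0, 7.14 and 8.12 in WT replicates 1 to 3 and 2.25, 4.78 and 4.01 in CKO replicates 1 to 3, low in replicate 1 of both groups (adjusted *p* = 0.730 in limma and 0.0265 with the block). These distances describe 6 libraries and were picked as the smallest among all tested genes.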

How the data were processed

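The mRNA-seq libraries of 3 WT and 3 CKO biological replicates of limb buds were used, and the chromatin samples were not used here. The authors deposited 1 table of FPKM per gene and library, from a stranded mRNA kit. Per the submitters' processing notes the build was mm10 and the tools included HISAT2 2.1.0 and featureCounts 1.6.3, and their settings for this table are not given in the sources used here. GENCODE vM21 on GRCm38 held 21933 (99.5%) of the gene identifiers. For 92.6% of these, FPKM times merged exon length gave whole reads in all 6 libraries, within 0.1 reads. Lengths of 1773 bases for *Cyp26a1* and 4109 for *Rarg* were read from the values.

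The 12305 genes whose mean FPKM reached 0.5 were tested on log2(FPKM + 0.1) with limma 3.58.1 in R 4.3.3 (lmFit, eBayes with trend), which was tested on simulated data. The smallest *p* of the exact permutation test was 0.1. The libraries share replicate numbers in the labels, and correlations of same-numbered libraries' deviations from their group means were 0.64, 0.44 and 0.27. As each exceeded 0.1, libraries of a number were treated as pairs, although no source says what a number stands for. Across numbers, the correlation was -0.60 to -0.37 for pairs with a replicate 1, but 0.49 between WT 2 and CKO 3 and 0.31 between WT 3 and CKO 2, both above the values within numbers 2 and 3 respectively, so the correlations set replicate 1 apart and do not tell replicates 2 and 3 from each other. Alternatives were other pseudocounts, filters, scalings, eBayes without trend, the replicate block and limma voom on recovered reads. Others were replicates 2 and 3 alone, without the block, and each library left out.

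The members, lists and alternatives were chosen with earlier results of these data known. Genes named are the 9 members, *Hnrnpk*, markers, genes of the wider list past an adjusted *p* of 0.05 with or without the block, the 2 most abundant of each role, and the 3 genes closest in profile to the 2 members of smallest *p*. *Top2b*, genes that share exon bases, and *Aldh1a1*, *Aldh1a3* and *Cyp26c1* were named after their values were seen. A gene of the wider list is counted but not reported here.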

Additional observations from a re-analysis of the deposited data

How the results depend on the processing

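The adjusted counts depended most on how replicate 1 was treated. Without the block, 7 genes were higher and 1 lower in CKO. Quantile normalization gave 12 higher, and no filter on low values gave 0 lower with 1452 genes at an unadjusted *p* under 0.05. The replicate block gave 139 and 207, limma voom with the block 209 and 338 over 11010 genes, and replicates 2 and 3 alone 867 and 984. With a library left out, counts ran from 1 to 10 higher and from 0 to 13 lower, with 513 to 2416 genes at an unadjusted *p* under 0.05. Of the 9 members, 0 were higher under every alternative, with 0 to 4 at an unadjusted *p* under 0.05, and 0 were lower except 1 with the block, 1 with voom and the block and 3 within replicates 2 and 3. In the wider list the higher and lower counts were 1 and 2 with the block, 1 and 1 with voom and the block, and 2 and 5 within replicates 2 and 3.

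*Aldh1a2* stayed below 0 under all 17 alternatives, from -1.12 to -0.26, and was called in 3, with voom and the block at -0.69 (adjusted *p* = 0.00592). *Rdh10* ran from -0.58 to -0.29, *Cyp26b1* from -0.57 to -0.04, *Rarb* from -0.79 to -0.045 and *Rarg* from -0.23 to -0.03. The sign turned for *Cyp26a1*, at 0.024 without CKO replicate 1, and for *Rara*, at 0.024 without CKO replicate 2. It turned for *Crabp1* at 0.021 without WT replicate 1 and 0.015 within replicates 2 and 3, and for *Crabp2* at 0.062 without CKO replicate 1 and 0.061 within replicates 2 and 3. With a library left out the lowest values were -0.29 for *Cyp26a1*, -0.12 for *Rara*, -0.49 for *Crabp1* and -0.22 for *Crabp2*. *Hnrnpk* passed with voom and the block (adjusted *p* = 0.0255) and within replicates 2 and 3 (0.0377). The replicate block changed the calls of *Aldh1a2*, *Rdh14*, *Nr2f1*, *Zfp703*, *Lrrc17* and the markers *Pax1*, *Irx3* and *Tbx5*, and no other call among the genes named. The cause of these changes was not tested. Low reads limit *Cyp26a1*, with 18 to 37 per library.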
